A study of Homo sapiens with 4 samples.

Results

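The MAP2K genes encode the MAP kinase kinases, the middle tier of the MAP kinase cascades. Each of these 7 enzymes is activated by a kinase of the MAP3K tier and in turn phosphorylates a MAP kinase: MAP2K1 and MAP2K2 (MEK1 and MEK2) activate ERK, MAP2K3 and MAP2K6 activate p38, MAP2K4 and MAP2K7 activate JNK, with MAP2K4 also acting on p38, and MAP2K5 activates ERK5. The ERK branch carries signals of growth and survival in many cells, myeloma cells among them. The family was examined in maps of STAT5A, a transcription factor that acts downstream of JAK kinases, and MAP2K2 was compared with its relatives and with genes of similar length.

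The maps came from chromatin immunoprecipitation and sequencing (ChIP-seq) of ARP1, an established human multiple myeloma line whose labelled tissue is bone marrow. There were 4 libraries, 1 STAT5A immunoprecipitate and 1 input for each of wild-type ARP1 cells and ARP1 cells with a knockdown of YTHDF2, a reader protein of N6-methyladenosine on RNA. The antibody label names STAT5A and the molecule label genomic DNA, and these were followed where the titles speak of RNA and the design text of histone marks. The way in which YTHDF2 was reduced, the number of clones and the level of the protein are not given in the labels, and the lists carry no measure of YTHDF2 RNA. The data analysed were 1 list of called peaks per condition, 31227 peaks in knockdown and 55269 in wild type, each peak with the authors' fold enrichment and q-value. There was no replicate list, so no test between conditions was made, and the values below describe these lists. Read depth is unknown, and its part in the differing list lengths was not tested. Of 8 plasma cell and myeloma genes looked up as a check of the cell label, 6 had a promoter peak in both lists. Of all 19974 protein-coding genes, 53.6% had one in both, so this count says little about the label. TNFRSF17 and SLAMF7 had none in either list, and a STAT5A peak is not a measure of expression.

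Peaks were collected when they were credited to a MAP2K gene by the authors or lay within a MAP2K gene or 1 kb of its ends. This gave 13 of the 31227 knockdown peaks and 42 of the 55269 wild-type peaks. Of these, 9 knockdown and 34 wild-type peaks lay in the genes or the 1 kb around them, and the other 4 and 8 lay farther out. The authors credited 1 knockdown and 6 wild-type peaks in MAP2K genes or the 1 kb around them to a neighbouring gene, TIPIN, SKOR1 or TGFBR3L. Peaks of the 2 lists that share at least 1 bp are called shared or counterparts, and the others unshared.

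The sequences of 4 gene starts and 1 internal start are shown to describe places named in the results below. They are the 250 bases before the RefSeq start (GRCh38.p14) of MAP2K3, which had the strongest STAT5A peak of the family, of MAP2K2, of MAP2K1, whose peak was credited to TIPIN, and of MAP2K6, which had no peak, and the 250 bases before an internal start of MAP2K2 at which a peak was called in wild type only. Capitals mark GGGCGG (a GC box) and CCAAT, searched on both strands, so that CCGCCC and ATTGG are the same letters read from the other strand.
MAP2K3, chr17:21284461-21284710, plus strand: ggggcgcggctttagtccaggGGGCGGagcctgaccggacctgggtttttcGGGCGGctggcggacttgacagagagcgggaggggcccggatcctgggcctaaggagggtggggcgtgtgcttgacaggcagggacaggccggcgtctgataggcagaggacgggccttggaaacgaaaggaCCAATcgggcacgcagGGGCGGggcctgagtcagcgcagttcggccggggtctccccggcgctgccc
MAP2K2, chr19:4124123-4124372, minus strand: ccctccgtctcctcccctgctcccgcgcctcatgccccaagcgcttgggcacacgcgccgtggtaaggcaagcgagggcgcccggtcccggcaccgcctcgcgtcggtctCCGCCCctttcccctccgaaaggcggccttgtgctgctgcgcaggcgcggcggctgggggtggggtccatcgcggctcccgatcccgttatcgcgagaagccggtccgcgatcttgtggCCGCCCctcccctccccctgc
MAP2K1, chr15:66386662-66386911, plus strand: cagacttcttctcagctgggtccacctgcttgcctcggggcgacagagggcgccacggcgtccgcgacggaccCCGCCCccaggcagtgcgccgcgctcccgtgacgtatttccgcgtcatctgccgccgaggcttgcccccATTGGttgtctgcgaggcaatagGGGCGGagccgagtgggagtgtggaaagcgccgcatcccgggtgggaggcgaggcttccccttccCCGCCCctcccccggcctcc
MAP2K6, chr17:69414447-69414696, plus strand: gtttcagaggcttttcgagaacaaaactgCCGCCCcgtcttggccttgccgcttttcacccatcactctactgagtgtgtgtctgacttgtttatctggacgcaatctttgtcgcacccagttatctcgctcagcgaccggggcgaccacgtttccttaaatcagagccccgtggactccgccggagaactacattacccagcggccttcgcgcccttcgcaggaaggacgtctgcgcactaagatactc
MAP2K2 internal start, chr19:4103207-4103456, minus strand: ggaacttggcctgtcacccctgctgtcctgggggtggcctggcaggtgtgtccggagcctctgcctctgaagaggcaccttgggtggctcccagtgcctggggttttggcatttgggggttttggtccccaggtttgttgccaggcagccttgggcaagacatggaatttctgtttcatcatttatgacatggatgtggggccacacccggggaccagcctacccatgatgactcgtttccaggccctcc

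The 6 members with a peak at their start had promoters rich in G, C and CpG. The window and the peak did not always coincide. Knockdown peaks covered 0 bases of the MAP2K4 and MAP2K7 windows, and the wild-type peak covered 35 bases of the MAP2K4 window. Over the 250 bases, GC content was 74.0% in MAP2K2, 70.4% in MAP2K3, 71.2% in MAP2K1, 74.0% in MAP2K4, 74.4% in MAP2K5 and 70.8% in MAP2K7, against 55.6% in MAP2K6 and a median of 58.0% over all 35114 RefSeq start windows. MAP2K6 still held 20 CpG dinucleotides, above the median of 11 for all windows, while the other gene starts held 22 to 41. The internal start of MAP2K2 held 3. A GGGCGG match was present at 6 of the 7 gene starts, MAP2K5 being without one, and a CCAAT match at 3, those of MAP2K1, MAP2K3 and MAP2K7. These letters occur in 42.6% and 32.0% of all windows, which include internal starts, as do the medians for GC and CpG above. With internal starts counted too, 6 of the 12 MAP2K windows held GGGCGG and 3 of 12 held CCAAT. The counts at gene starts alone thus have no background of the same kind here. The core STAT motif TTCNNNGAA, a palindrome that reads the same on both strands, was found in none of the 12 MAP2K windows and in 6.57% of all windows. A match, or its absence in this window, is a description of the letters only.

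At the gene starts, STAT5A occupancy was common to both conditions. A peak lay within 1 kb of the start of 6 of the 7 genes in each list, all but MAP2K6, and every one of these start peaks overlapped a start peak of the other list. When only peaks credited to the gene by the authors were counted, 5 of 7 genes had a promoter peak in knockdown, in wild type and in both, because the MAP2K1 peak was given to TIPIN. Of 19974 protein-coding genes, 56.1% had such a credited promoter peak in knockdown, 64.7% in wild type and 53.6% in both.

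MAP2K3, a kinase of p38, had the strongest start peak of the family in both lists. Its knockdown peak (chromosome 17, 21283878 to 21285465, hg38) had a fold enrichment of 17.5 and its wild-type peak (21283837 to 21285181) a fold of 100.5. By fold they ranked at percentiles 96.0 and 98.8 of all peaks of their lists, and at 92.5 and 97.1 of the promoter peaks alone.

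MAP2K2, the gene of MEK2, had a start peak in the upper part of each list. Its start peak had a fold of 5.94 in knockdown (chromosome 19, 4123749 to 4124476) and 13.5 in wild type (4123670 to 4124485). These ranked at percentiles 81.6 and 89.4 of all peaks, and at 70.4 and 75.9 of promoter peaks. The start of MAP2K1, the gene of MEK1, carried a knockdown peak of fold 5.25 (chromosome 15, 66386550 to 66387492) and a wild-type peak of fold 17.2 (66386582 to 66387557), at percentiles 71.7 and 94.0 of all peaks and 58.8 and 85.9 of promoter peaks. This peak spans the starts of MAP2K1 and of TIPIN, a replication fork protein gene that is transcribed the other way, and cannot be divided between them. Both MEK genes thus had a start peak in both conditions.

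The start peaks of MAP2K4 and MAP2K5 ranked at percentiles 65.8 and 69.7 of all peaks in knockdown and 78.4 and 72.5 in wild type, and nearer to the middle among promoter peaks, at 52.5 and 56.6 in knockdown and 56.4 and 48.5 in wild type. MAP2K4 had a fold of 4.93 in knockdown (chromosome 17, 12020899 to 12021146) and 9.56 in wild type (12020842 to 12021560), and its start lies within the annotated span of ZNF18. MAP2K5, of the ERK5 branch, had 5.13 in knockdown (chromosome 15, 67542328 to 67542680) and 8.39 in wild type (67542427 to 67543305). MAP2K7, of the JNK branch, had a pair of knockdown start peaks with folds of 3.28 (chromosome 19, 7903025 to 7903449) and 3.75 (7903899 to 7904481), which lay on either side of the gene start. In wild type a single peak of 1514 bp overlapped both (7903054 to 7904567, fold 18.1). By its strongest start peak, MAP2K7 ranked at percentile 29.5 of all knockdown peaks and 94.6 of all wild-type peaks, and at 21.5 and 87.2 of promoter peaks.

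The order of start folds therefore differed between the lists below MAP2K3. In wild type it ran MAP2K3, MAP2K7, MAP2K1, MAP2K2, MAP2K4 and MAP2K5, and in knockdown MAP2K3, MAP2K2, MAP2K1, MAP2K5, MAP2K4 and MAP2K7. Without replicates, whether neighbours in these orders differ could not be tested. The median strongest promoter fold over all protein-coding genes with one was 5.22 in knockdown and 11.1 in wild type. The higher wild-type folds at MAP2K starts stand beside this higher median of the whole list.

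**Figure D1:**
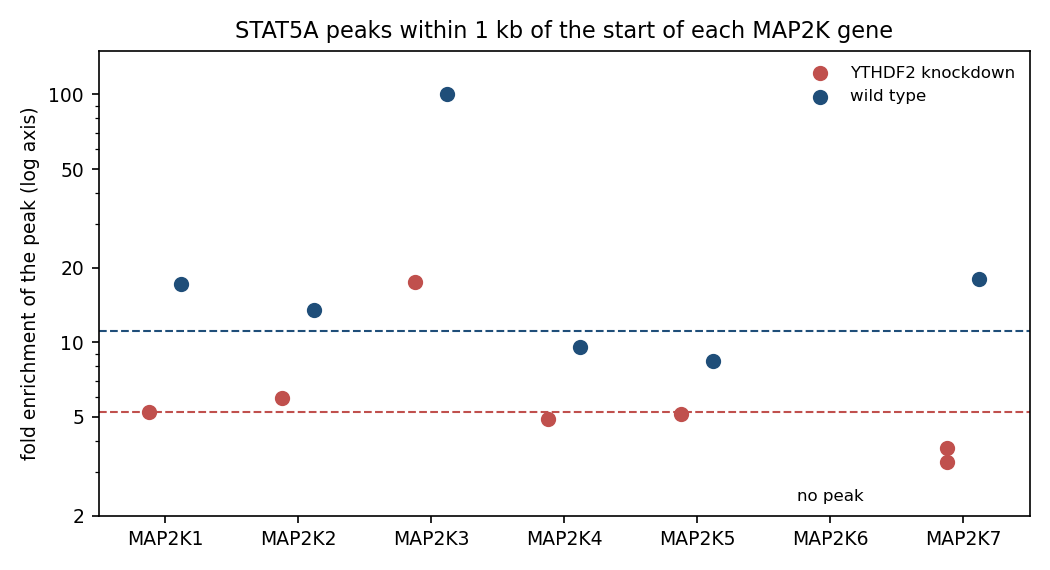
Fold enrichment (log axis) of each STAT5A peak within 1 kb of the start of the 7 MAP2K genes, 1 point per peak, in knockdown and wild type; dashed lines are the medians of the strongest promoter fold over protein-coding genes, 5.22 and 11.1. MAP2K3 is highest in both lists (17.5 and 100.5), MAP2K7 has a pair of knockdown peaks below the knockdown median, and MAP2K6 has none.

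MAP2K6, a p38 kinase gene of 139.2 kb on chromosome 17 (69414697 to 69553865), was the member without a called STAT5A peak. No peak of either list lay in the gene or within 1 kb of it, nor was any credited to it. Of protein-coding genes, 19.0% had no peak in the gene or 1 kb around it in either list. Among the 1505 other genes within 25% of its length, 16.2% had no knockdown peak and 8.44% no wild-type peak. Within 250 kb on either side there were 2 knockdown and 3 wild-type peaks. MAP2K4, a gene of 123.0 kb on the same chromosome, had likewise few peaks around it, with 2 and 1 in the same window, but did have a start peak.

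Away from the starts the lists differed. Of the 34 wild-type peaks in the genes or the 1 kb around them, 28 lay over 1 kb from the gene start, in what is called the body here, and 27 of these had no knockdown counterpart. The knockdown list had 2 body peaks. Without a counterpart were thus 27 of 34 family peaks in wild type (79.4%, exact 95% Clopper-Pearson interval 62.1 to 91.3%, counting error only, with peaks of 1 gene not independent), against 59.6% of all wild-type peaks. In the other direction, 1 of 9 knockdown peaks lacked a wild-type counterpart, against 22.9% of all knockdown peaks. The unshared wild-type peaks were weak, with folds of 3.32 to 8.27 and a median of 5.09, whereas the 7 shared ones had folds of 7.88 to 100.5. The single shared body peak lay in MAP2K3, 3.4 kb from the gene start at an internal start, with folds of 3.89 in knockdown and 7.88 in wild type.

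Unshared wild-type peaks were found in 4 of the 7 genes, MAP2K2 (10), MAP2K3 (7), MAP2K7 (7) and MAP2K5 (3), while 40.5% of protein-coding genes had at least 1. MAP2K1 and MAP2K4, both over 100 kb long, had none. The number did not follow gene length within the family, since the 3 shortest genes, MAP2K7 (10.6 kb), MAP2K3 (30.5 kb) and MAP2K2 (33.8 kb), held 24 of the 27. The share of the gene and its 1 kb flanks under a wild-type peak was 50.6% in MAP2K7, 19.4% in MAP2K2 and 16.5% in MAP2K3, against 8.0%, 2.71% and 5.55% in knockdown. In MAP2K5 it was 1.01% and 0.133%.

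In MAP2K2 (chromosome 19, 4090321 to 4124122, minus strand) the 10 unshared wild-type peaks were spread from 8.7 to 33.0 kb from the start. By the authors' annotation, 5 were intronic, 3 lay within 1 kb of an internal transcript start, 1 was exonic and 1 lay in the 3′ UTR. From the start towards the end of the gene, their folds were 5.09, 5.21, 4.05, 4.80, 4.06, 5.82, 5.89, 5.68, 5.91 and 5.33. The folds thus kept to a narrow range, 4.05 to 5.91, with a median of 5.27, below the wild-type list's median of 6.0. The peak at 4102421 to 4103254 (fold 4.80) covered 48 of the 250 bases shown before the internal start. The nearest knockdown peak was the weak intronic one at 4112209 to 4112452 (fold 3.07, authors' q-value 0.0168), 55 bp from the wild-type peak at 4112507 to 4112771. The other 9 unshared peaks lay 2852 bp or more from any knockdown peak. Past the end of the gene, the authors credited MAP2K2 with a shared intergenic peak (4084060 to 4084649 in knockdown, fold 4.13, and 4083749 to 4084778 in wild type, fold 5.10) and with an unshared wild-type peak at 4087583 to 4087808 (fold 3.64).

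MAP2K7 (chromosome 19, 7903877 to 7914478, plus strand) held the densest group. Its 7 unshared wild-type peaks formed a run from 7908740 to 7915603, from the later part of the gene to just past its end, with folds, along the gene, of 4.64, 8.27, 7.31, 5.37, 3.90, 6.37 and 3.72. The strongest, at 7910155 to 7911266, and its neighbours on both sides lay within 1 kb of an internal transcript start by the authors' annotation. Knockdown had no body peak in this gene. Upstream of the gene, wild type had a further weak peak credited to MAP2K7 at 7899761 to 7900438 (fold 3.50). The last 2 of the run were credited by the authors to TGFBR3L, which starts beyond the end of MAP2K7, so that a count by credited gene gives MAP2K7 fewer. When peaks within 500 bp were merged, the run became 2 unshared peaks.

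MAP2K3 (chromosome 17, 21284711 to 21315240, plus strand) had unshared wild-type peaks at 5.4 to 29.7 kb from its start, with folds, along the gene, of 3.32, 4.20, 4.46, 3.53, 4.08, 5.45 and 4.0. By the authors' annotation, 3 of these were intronic and 2 lay in a 3′ UTR. Beyond its end, the authors credited it with a strong shared intergenic peak, whose fold was 20.7 in knockdown (21322736 to 21323701) and 33.2 in wild type (21322747 to 21323412). In knockdown this distal peak, 38.5 kb from the gene start, had a higher fold than the MAP2K3 start peak, and in wild type a lower one. Another shared intergenic peak lay upstream of the gene (folds 3.64 and 6.56). Between the gene end and the strong peak, wild type had 3 unshared peaks of folds 4.40 to 7.0 and knockdown 1 of fold 3.87.

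In MAP2K5 (chromosome 15, 67542703 to 67807114, plus strand), a gene of 264.4 kb, the 3 unshared wild-type peaks were crowded at the very end. They spanned 67804454 to 67807470, with folds of 5.38, 6.28 and 4.67, and were all credited to SKOR1, a corepressor gene that follows on the same chromosome. No peak of either list was called between the start peak of MAP2K5 and this group.

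**Figure D2:**
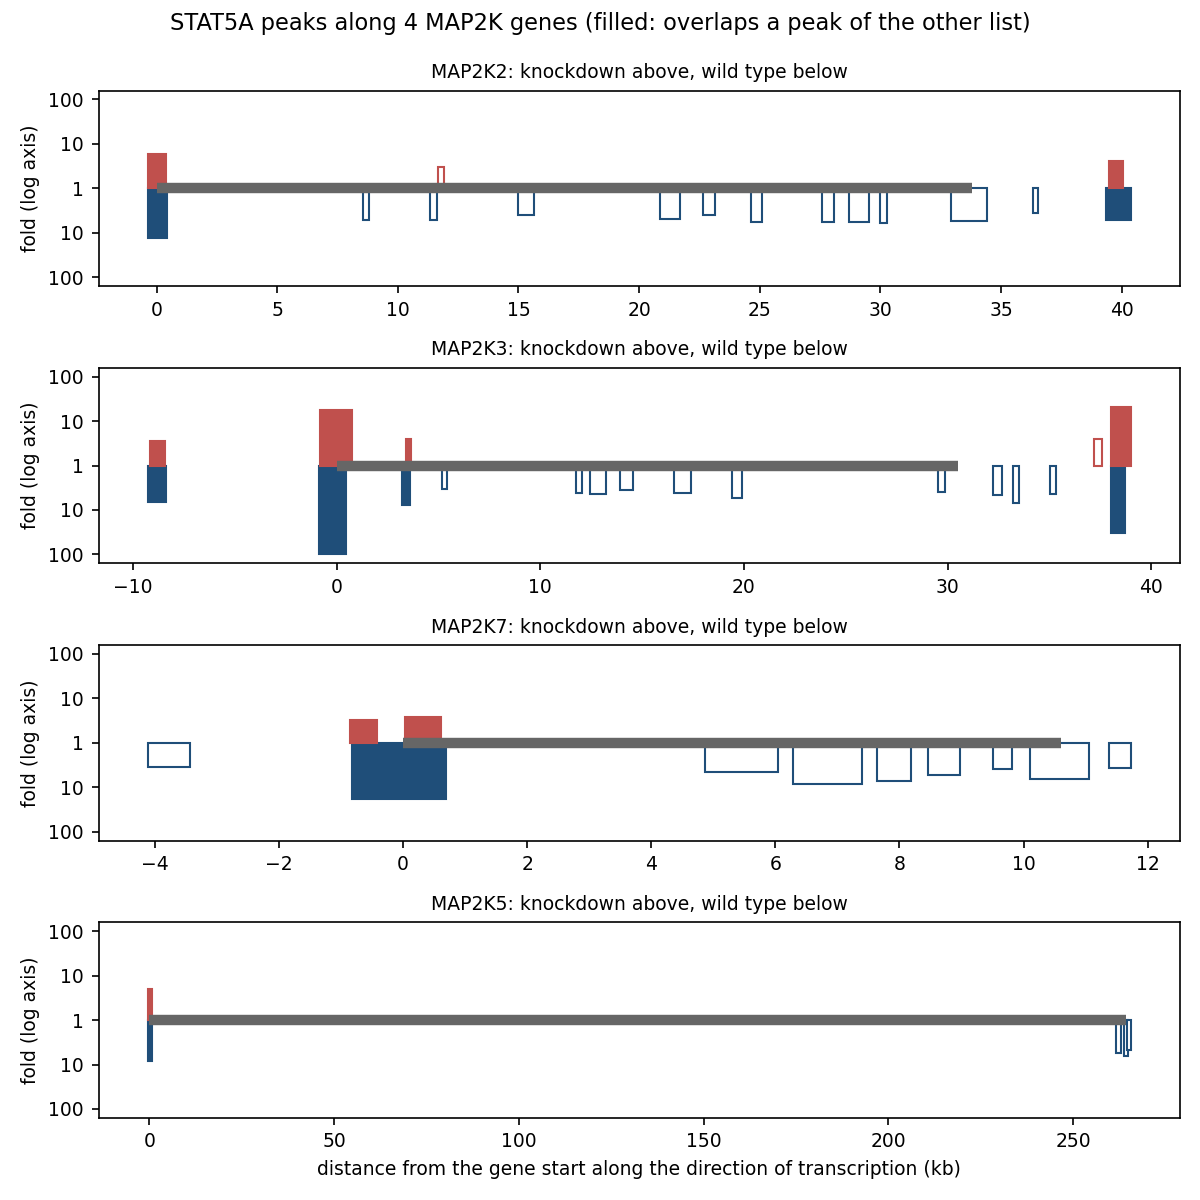
STAT5A peaks along MAP2K2, MAP2K3, MAP2K7 and MAP2K5, with distance from the gene start in kb (each gene on its own scale) and fold enrichment on a log axis that starts at 1, knockdown upwards and wild type downwards; grey bars are the genes, filled boxes overlap a peak of the other list and open boxes do not. The start peaks are filled in all 4 genes, and the open boxes are nearly all wild type, 10 in MAP2K2, 7 in MAP2K3, 7 in MAP2K7 and 3 in MAP2K5 within 1 kb of the gene.

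The position of the unshared wild-type peaks along the gene differed among the members. Of the 24 with their summit inside a gene and over 1 kb from its start, 17 (70.8%) lay beyond the midpoint, with 7 of 10 in MAP2K2, 3 of 7 in MAP2K3, 5 of 5 in MAP2K7 and 2 of 2 in MAP2K5. Over all protein-coding genes from the length of MAP2K7 to that of MAP2K5, the share was 60.6% of 12239 such peaks, so that the family count was near that of genes in general.

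MAP2K2 was then set beside genes of its length, the 2620 other protein-coding genes of 25.4 to 42.2 kb, which lie within 25% of it. These had a median of 1 wild-type peak, 1 knockdown peak and 0 unshared wild-type peaks in the gene or 1 kb around it. MAP2K2, with 11 wild-type, 2 knockdown and 10 unshared peaks, lay at percentiles 96.7, 81.5 and 98.1. At least 10 unshared wild-type peaks were found in 58 of the 2620 genes (2.21%). The number was thus high for the length of the gene but not the highest. INTS1 had 20 unshared wild-type peaks, GPSM1 19, SLC7A5 18, DOK7 17 and ASPSCR1 17.

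Within the family, MAP2K7 stood higher than MAP2K2 among genes of its own length, with peaks counted by position and not merged. Its 7 unshared wild-type peaks were reached by 10 of 2249 genes of 8.0 to 13.2 kb (0.445%, percentile 99.8), and those of MAP2K3 by 108 of 2706 genes of 22.9 to 38.2 kb (3.99%, percentile 96.5). MAP2K5 lay at percentile 83.8, and MAP2K1, MAP2K4 and MAP2K6, with 0, at 27.9, 26.7 and 25.7. By peaks credited to the gene, MAP2K5 had 0 and lay at 20.3, and MAP2K7 lay at 97.5, below MAP2K2 at 98.1. With peaks within 500 bp merged, MAP2K7 lay at 88.4, again below MAP2K2 at 99. MAP2K4 had 1 and lay at 57.3 with only folds of at least 5 and at 58.2 with a reciprocal overlap of 50%. By unshared wild-type peaks, the high position of MAP2K2 was thus shared with MAP2K3 and MAP2K7 and not with MAP2K1, its closest relative. With the wild-type list shortened to the length of the knockdown list by keeping its lowest q-values, the unshared peaks numbered 4 in MAP2K2, 1 in MAP2K3 and 3 in MAP2K7, at percentiles 97.8, 84.1 and 98.9 of genes of like length. By knockdown peaks, MAP2K2, MAP2K3 and MAP2K7 lay at percentiles 81.5, 81.5 and 85.5. That of MAP2K2 was 49.4 with a q-value under 0.01, which removes its weak intronic peak, 52.8 with a q-value under 0.001, 54.8 on its own chromosome and 21.9 among genes with a like number of wild-type peaks. That of MAP2K7 was 31.8 with a fold of at least 5 and 58.4 with peaks within 500 bp merged.

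**Figure D3:**
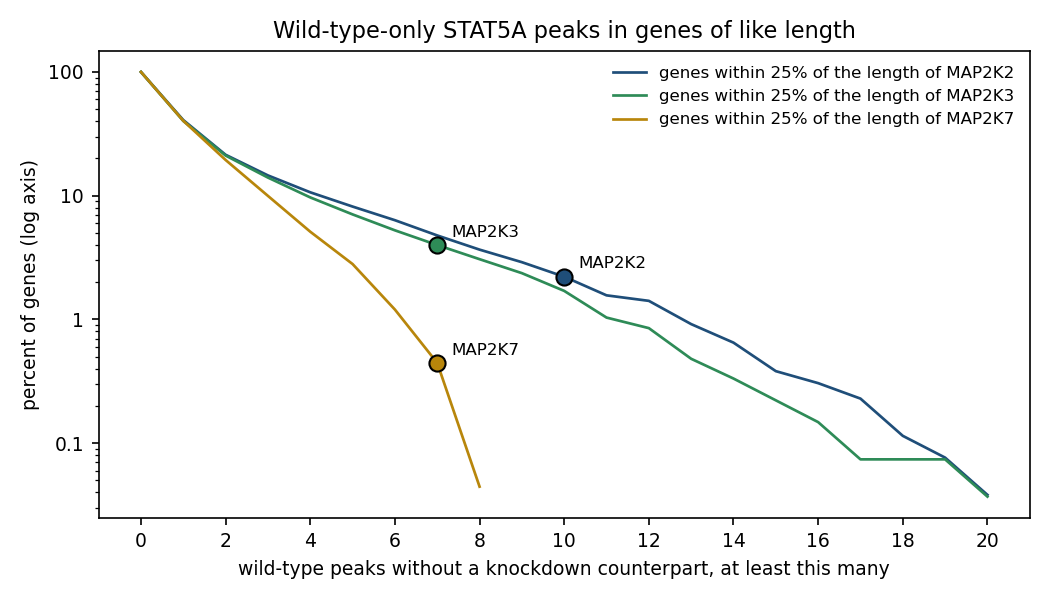
Percent of genes (log axis) with at least a given number of wild-type peaks that lack a knockdown counterpart, among genes within 25% of the length of MAP2K2, MAP2K3 or MAP2K7; circles mark the 3 genes themselves. MAP2K2 lies at 10 peaks and 2.21%, MAP2K3 at 7 and 3.99%, and MAP2K7 at 7 and 0.445%.

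MAP2K2 was also set beside genes of its chromosome, its neighbourhood and genes with a like number of wild-type peaks. Chromosome 19 genes of like length had a median of 4 wild-type and 2 unshared peaks, and 10 of 229 (4.37%) reached the unshared number of MAP2K2, which then lay at percentile 96.3. In the 250 kb on either side of MAP2K2, wild type had 90 peaks and knockdown 39, a ratio of 2.31, and 67.8% of these wild-type peaks were unshared, against 62.9% on chromosome 19 and 90.9% within MAP2K2. Around MAP2K7 the ratio was 2.48, with 74.2% unshared. Around MAP2K3 it was 1.74, with 57.6% unshared. Of 96 genes of the length of MAP2K2 that had 9 to 13 wild-type peaks, a comparison chosen after the values were seen, the median share of unshared peaks was 73.9%, with quartiles of 63.6 and 81.8%. The 90.9% of MAP2K2 was reached or passed by 7 of these genes (7.29%). Since 10 of the 11 wild-type peaks of MAP2K2 are its unshared ones, choosing genes by that number also chooses for many unshared peaks.

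Throughout the wild-type list, weak peaks were less often shared than strong ones. Of wild-type peaks with a fold from 3 to 4, 88.5% lacked a knockdown counterpart, from 5 to 6 78.8%, from 8 to 10 36.1%, and from 15 to 20 1.52%. Of the 19878 wild-type peaks in the fold range of the MAP2K2 body peaks, 82.4% lacked one, and 84.0% of those on chromosome 19, beside 10 of 10 in MAP2K2. In the fold ranges of the MAP2K3 and MAP2K7 body peaks the shares were 77.8% and 75.8%, beside 7 of 8 and 7 of 7. If each family peak had the share of its fold bin, 22.9 of the 34 would be unshared, beside the 27 counted.

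**Figure D4:**
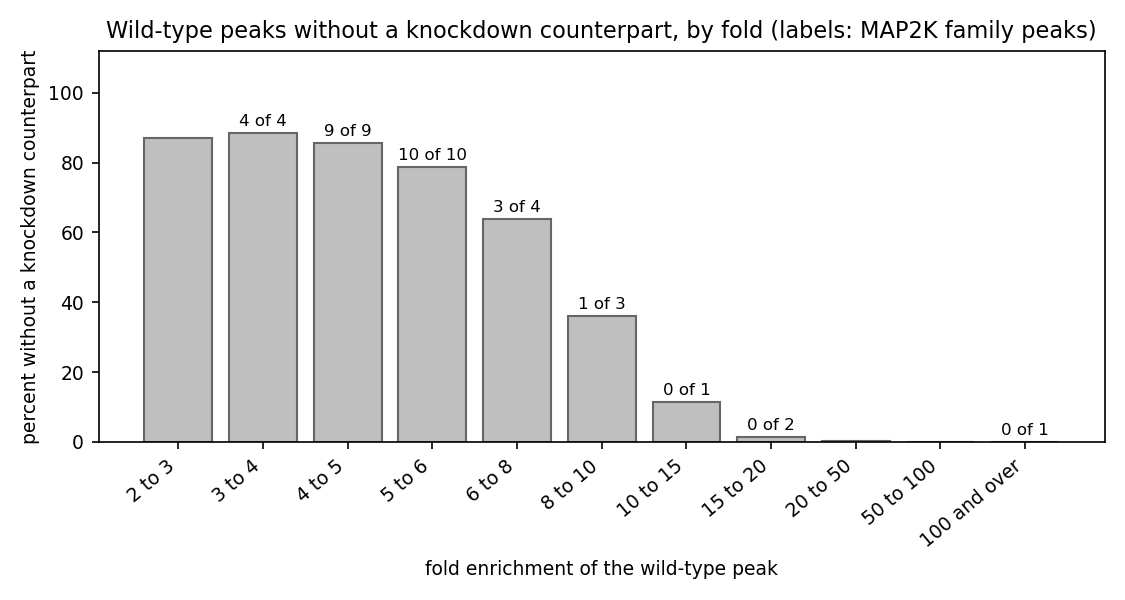
Percent of all wild-type peaks that lack a knockdown counterpart (bars), by the fold enrichment of the wild-type peak; labels give the MAP2K family peaks without a counterpart of those in the bin. The bars fall from 88.5% at folds of 3 to 4 to 1.52% at 15 to 20, and the family has 23 of 23 unshared below a fold of 6 and 4 of 11 above it.

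The genes most like MAP2K2 were sought among the 1597 genes of like length with a promoter peak in both lists, by the summed difference in numbers of wild-type, knockdown and unshared wild-type peaks. BRD3, the gene of a bromodomain protein, had the same numbers (11, 2 and 10). CEP131, C1orf159, CSNK1D and UPF1 differed from MAP2K2 by 1 peak in all. In total 11 genes lay within a difference of 1.

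Genes listed from the tiers above and below the MAP2K genes also had STAT5A at most promoters, by peaks credited to the gene. The list was chosen by hand and does not hold every gene of each tier, so its shares are those of the listed genes only. In a list of 39 genes, 36 (92.3%) had a promoter peak in knockdown and 36 in wild type, 34 of them in both. Of all protein-coding genes, 56.1% had one in knockdown, 64.7% in wild type and 53.6% in both. Of the 22 listed MAP3K genes, 19 had one in knockdown and 20 in wild type. By the higher of the folds in the lists, which was the wild-type one, the first 4 were MAP3K9 (14.9 in knockdown and 106.6 in wild type), the RAF kinase gene ARAF (59.6 and 78.5), MAP3K3 (21.6 and 74.9) and MAP3K10 (6.16 and 34.1). MAP3K13 had a weak promoter peak in knockdown only (fold 2.39), and MOS (4.36) and TAOK2 (3.07) in wild type only. All 10 listed MAP kinase genes had a promoter peak in both. They were led on the same measure by the JNK genes MAPK9 (160.0 and 565), MAPK10 (23 and 77.4) and MAPK8 (4.73 and 14), then the p38 gene MAPK13 (5.40 and 13.6). For MAPK7 and MAP3K11, the strongest credited promoter peaks of the 2 lists did not overlap. Those of MAPK7 lay at 19378260 to 19379146 in knockdown (fold 13.5) and 19380838 to 19381279 in wild type (fold 4.94). In both genes the knockdown peak did overlap another wild-type peak, while the wild-type peak named had no knockdown counterpart. The folds of MAPK7 therefore belong to different places and do not compare the lists at 1 place.

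Of 7 listed scaffold genes, which hold the kinases of a cascade together, all had a promoter peak in knockdown and 6 in wild type. By the higher fold, again that of wild type, the first 4 were KSR1 (6.30 and 25.3), MAPK8IP3 (4.60 and 16.2), SPAG9 (4.06 and 15.7) and KSR2 (5.48 and 13.6), and LAMTOR3 had a peak in knockdown only (3.25). MAPK8IP3, a JNK scaffold gene, had 21 wild-type peaks in the gene or 1 kb around it and 18 without a knockdown counterpart. Counted by position, in the gene or 1 kb around it, the median number of unshared wild-type peaks differed among the tiers. It was 0.5 for the listed MAP3K genes, 1 for the listed MAP kinase genes, 2 for the listed scaffold genes and 3 for the MAP2K genes. The MAP2K median is the value of MAP2K5, whose 3 peaks were all credited to SKOR1, so that it has 0 by credited gene. Of all protein-coding genes, 40.5% had at least 1 by position. The tiers were not matched for gene length.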

How the data were processed

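STAT5A ChIP-seq peak lists of wild-type and YTHDF2 knockdown ARP1 cells were analysed, 1 list per condition, grouped by the sample titles. Cutadapt, Trimmomatic, FastQC, Bowtie2, MACS2 and the hg38 build are listed in the submitters' processing notes, with no version or setting. No source used here names the annotation software. Each peak's fold enrichment, deposited by the authors, is a linear ratio whose denominator is not stated. It served to describe, rank and filter peaks inside its list. Folds of both lists were also printed side by side, and cascade genes were ordered by the higher one, without a test between the lists. The authors' deposited p-value and q-value are linear too, with q-values up to 0.05. Depth is unknown, since reads and input coverage were not used here.

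Gene spans, strands and start windows came from RefSeq tables of GRCh38.p14 for the 19974 protein-coding genes on autosomes and X. All 7 MAP2K genes matched. In 593 of 593 pairs of opposite-strand start windows that overlap, the bases were the same, which checked the strand of the sequences. Peaks were counted in a gene extended by 1 kb, and genes of like length were those within 25%. Percentiles place ties at their middle and are descriptions, since genes are not replicates. Counting was tested on simulated data, where the planted numbers were recovered in 200 of 200 genes. The members, lists and named-gene rules were chosen with earlier results of these data known. The named genes were all members, neighbours credited with their peaks, the 5 genes of like length with most unshared peaks, the 5 most alike, and in each tier the 4 with the highest promoter fold and those with a promoter peak in 1 list only. Alternatives changed the q-value, fold, overlap, margin, gene length and crediting. The scripts used scipy 1.17.1, pandas 2.3.3 and numpy 2.4.6 under Python 3.11.15.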

Additional observations from a re-analysis of the deposited data

How the results depend on the processing

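No paired analysis was possible because each condition has 1 list. The number of MAP2K genes with a promoter peak stayed at 5 to 6 in both lists, and cascade genes at 33 to 36, under every alternative run for them. Family peaks fell from 9 to 4 in knockdown and from 34 to 21 in wild type with a fold of at least 5, and to 16 in wild type with that list cut to the length of the knockdown list. Unshared wild-type family peaks, 27 as reported, were then 17 and 9. Unshared knockdown family peaks, 1 as reported, were 0 with a q-value under 0.01, a q-value under 0.001, a fold of at least 5 or a counterpart within 500 bp, 2 among peaks credited to the gene, and 6 with a reciprocal overlap of 50%. The percentile of MAP2K2 for unshared wild-type peaks, 98.1 as reported, was 97.3 with a fold of at least 5, 99 with peaks within 500 bp merged, 97.0 with reciprocal overlap, 98.7 and 98.6 with lengths within 10 and 50%, 96.3 on the same chromosome, 97.4 among genes with a promoter peak in both lists, and 85.9 among genes with a like number of wild-type peaks, added after the data were seen. For MAP2K7 it was 88.4 with merged peaks, and for MAP2K3 84.3 with a fold of at least 5. The cause of these shifts was not tested. Unknown depth limits every comparison of peak numbers between the lists.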
